A study of Mus musculus with 14 samples.

Results

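The 10 genes followed here have products that fill the secondary and tertiary granules of neutrophils, or are abundant beside them: Ltf, Camp, Ngp, Lcn2, Mmp8, Mmp9, Cd177, Chil3, S100a8 and S100a9. They were taken by symbol, in both experiments of the series, from the 55367 gene symbols of each count table, and all 10 were present and passed the expression filter in both. Messenger RNA was sequenced from mouse bone marrow cells depleted of mature lineages, labelled wild-type and grown with the cytokines SCF, IL6 and IL3. The first experiment had 3 cultures with a pSMAL lentivirus with luciferase, the control, and 3 with the same vector carrying SETBP1-D868N, a mutant form of the nuclear protein SETBP1. In the second, every culture carried SETBP1-D868N, including the controls, and treatment lasted 4 days. PF-9363, an inhibitor of MYST histone acetyltransferases, was given at 2.5 µM to 4 of them, and the other 4 received DMSO. No age, sex or strain of the animals is given in the labels used here, nor the promoter that drives the transgene, nor whether replicates came from separate animals, so p-values measure the spread between these libraries, which may be technical.

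Neutrophils build their granules in order as they mature. Primary granules, with myeloperoxidase and elastase, are laid down in promyelocytes, secondary (specific) granules with lactoferrin and cathelicidin in myelocytes, and tertiary granules with gelatinase in later stages. C/EBPε, a transcription factor, is required for the secondary granule genes, and GFI1 and PU.1 act in the same lineage. Ltf encodes lactoferrin, which binds iron, Camp the cathelicidin antimicrobial peptide, Ngp a cathelicidin-related granule protein and Lcn2 the lipocalin that captures bacterial siderophores. Mmp8 is the neutrophil collagenase, Mmp9 is gelatinase B, and Cd177 is a membrane protein of specific granules and the cell surface. S100a8 and S100a9 form calprotectin, which is held mainly in the cytosol rather than in granules, and Chil3 is a chitinase-like lectin also made by macrophages. Lcn2, Mmp9, S100a8 and S100a9 are likewise made by monocytes and macrophages, so the list is not exclusive to neutrophils.

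The 10 genes lie on 4 chromosomes of GRCm38, the build named in the submitters' processing notes. Camp (chromosome 9, 109847379 to 109849617, minus strand, 4 exons), Ngp (110419747 to 110423012, plus strand, 4 exons) and Ltf (111019271 to 111042767, plus strand, 17 exons) share a stretch of chromosome 9, and Mmp8 (7558456 to 7568485, plus strand, 10 exons) lies near its start. S100a8 (90668978 to 90670035, plus strand) and S100a9 (90692632 to 90695721, minus strand) are neighbours on chromosome 3, 22.6 kb apart, with Chil3 (106147554 to 106167564, minus strand) on the same chromosome. Lcn2 (32384633 to 32388252, minus strand) and Mmp9 (164940780 to 164955850, plus strand) are on chromosome 2, and Cd177 (24743983 to 24760311, minus strand) is on chromosome 7. In GENCODE M21 0 of them overlap another annotated gene. All values are per gene symbol, and which parts of each gene the authors counted is not given in the sources used here.

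The sequence before the start site is shown for the 4 members on chromosome 9, because they fell together with SETBP1-D868N and parted with PF-9363. Neither trait is particular to that chromosome. All members fell with SETBP1-D868N, and members on other chromosomes also parted with PF-9363. The runs come from RefSeq promoter windows of GRCm38.p6, begin 250 bases before the RefSeq start, and stop before the first exon base of GENCODE M21 or at the RefSeq start, whichever comes first, so they differ in length. For Mmp8 the RefSeq start comes first. Capitals mark TTGCNNAA on either strand (a C/EBP-type match) and GAGGAA on either strand (the core of a PU.1-type ETS site). The windows are chr9:111019042-111019270 (plus strand) for Ltf, chr9:7558179-7558428 (plus) for Mmp8, chr9:110419558-110419746 (plus) for Ngp and chr9:109849618-109849706 (minus) for Camp.
Ltf: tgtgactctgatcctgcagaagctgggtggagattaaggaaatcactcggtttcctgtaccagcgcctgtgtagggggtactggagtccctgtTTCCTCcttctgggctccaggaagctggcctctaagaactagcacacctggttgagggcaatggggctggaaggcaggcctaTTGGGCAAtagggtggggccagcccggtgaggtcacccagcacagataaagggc
Mmp8: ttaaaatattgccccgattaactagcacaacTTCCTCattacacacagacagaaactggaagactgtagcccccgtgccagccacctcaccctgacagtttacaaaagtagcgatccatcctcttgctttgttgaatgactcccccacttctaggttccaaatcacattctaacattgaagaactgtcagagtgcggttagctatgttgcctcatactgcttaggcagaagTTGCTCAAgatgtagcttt
Ngp: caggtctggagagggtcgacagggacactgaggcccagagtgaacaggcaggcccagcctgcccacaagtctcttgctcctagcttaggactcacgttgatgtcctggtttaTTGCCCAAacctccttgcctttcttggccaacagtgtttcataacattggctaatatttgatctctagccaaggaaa
Camp: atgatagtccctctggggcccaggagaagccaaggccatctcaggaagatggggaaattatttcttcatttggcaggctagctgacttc

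RefSeq windows were matched for 9 of the 10 genes. Over the full 250 bases before the start, 5 of the 9 held the C/EBP-type letters (Ltf, Ngp, Lcn2, Mmp8 and S100a9), against 9.56% of 32851 promoter windows of the same length. The PU.1-type letters were found in 5 of the 9 (Ltf, Lcn2, Mmp8, Cd177 and S100a8), against 23.3% of all windows. The C/EBP-type match began 75 bases before the RefSeq start in Ltf, 19 in Mmp8, 216 in Lcn2, 236 in S100a9, and 138 and 11 in Ngp, where the nearer match lies past the end of the printed run. The 250-base windows of Camp and Chil3 held neither set of letters. For Camp, only 89 of these bases lie before the first exon base of GENCODE M21, and the other 161 run from it to the RefSeq start. Sequence further upstream of Camp was not searched. A match of letters is a description of the sequence and says nothing of binding.

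The first experiment held 60147266 to 68730322 counts per library and the second 7083731 to 10359093. RNA input was 500 ng and 100 ng and library preparation differed, so the 2 tables were never tested against each other. Levels are given as CPM, counts scaled to 1 common library total and corrected with TMM factors (trimmed mean of M-values). Means carry their SD, over 3 libraries per group in the first experiment and over 4 in the second. Depth was ample for these genes, the lowest single value being 122 counts, for Camp in PF-9363 3. Although the cells were labelled lineage-negative, myeloid lineage genes were present in the luciferase cultures, with Itgam (CD11b) at 192.5 ± 8.17 CPM and the neutrophil gene Ly6g at 40.0 ± 3.27 CPM, beside the progenitor genes Kit (180.5 ± 2.81) and Cd34 (67.5 ± 2.33). All 8 neutrophil markers on the list used here passed the filter in both experiments. The T-cell gene Cd3e was at 0.0253 CPM with luciferase and had 0 counts in the second experiment. Cd3e was 1 of 8 lymphoid markers, which summed to 26.42 to 27.54 CPM with luciferase and 13.91 to 17.55 CPM with SETBP1-D868N. Their sum was 10.78 to 13.15 CPM with DMSO and 72.51 to 100.1 CPM with PF-9363. Of the 8, 1 passed the filter for PF-9363 against DMSO, and it rose (log2 fold change 2.83).

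Together the 10 genes held several percent of all counts in every library. Their share was 4.39% ± 0.0121 with luciferase and 2.99% ± 0.146 with SETBP1-D868N, and the ranges of 4.38% to 4.40% and 2.82% to 3.09% did not overlap. In the second experiment it was 3.73% ± 0.123 with DMSO and 4.27% ± 0.173 with PF-9363, between 3.575% and 3.85% and between 4.09% and 4.47%. Chil3 alone took 2.135% ± 0.0490 of counts with luciferase, 1.60% ± 0.0771 with SETBP1-D868N, 1.995% ± 0.144 with DMSO and 2.35% ± 0.138 with PF-9363. The total is therefore mostly the behaviour of Chil3, S100a9 and a few other abundant members, and it hides the divergence among the rest.

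**Figure D1:**
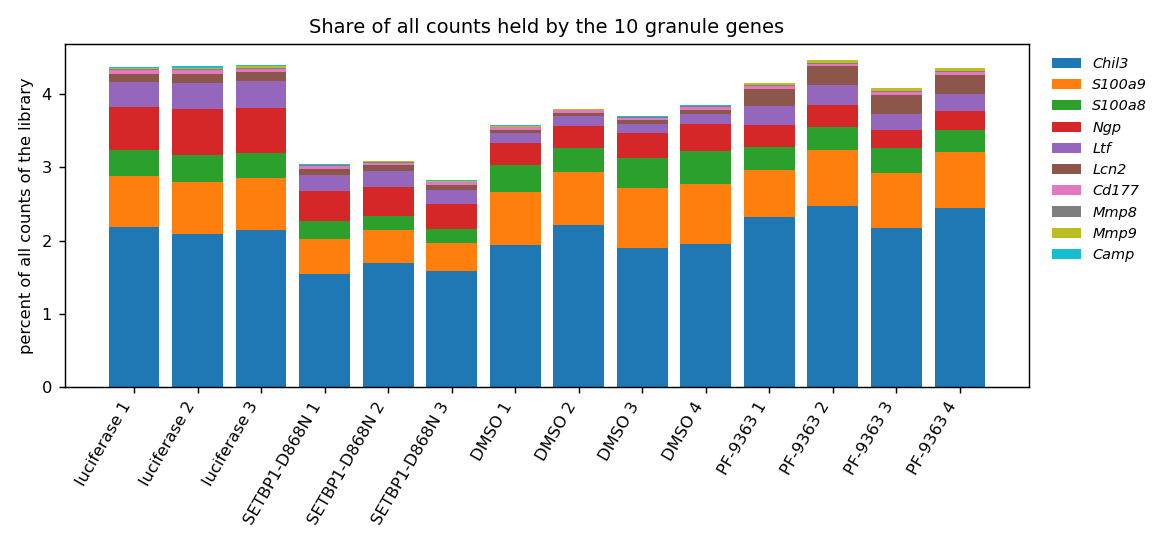
Percent of all counts of each library (vertical axis) held by each of the 10 granule genes, stacked by gene, for the 14 libraries. The summed share is lower in the 3 SETBP1-D868N libraries (2.82% to 3.09%) than with luciferase (4.38% to 4.40%), and the band of Lcn2 is wider in the 4 PF-9363 libraries than with DMSO.

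Levels between genes were compared as CPM per kilobase of the longest coding transcript in GENCODE M21 (0.49 kb for S100a8 to 3.17 kb for Mmp9). With luciferase, Chil3 (14114 ± 377 CPM per kb) and S100a9 (13984 ± 148) stood highest and overlapped in their libraries. S100a8 (7402 ± 325) and Ngp (5096 ± 132) followed, then Ltf (1332 ± 54.9) and Lcn2 (1297 ± 49.9), whose libraries also overlapped. Camp (222 ± 7.92) and Cd177 (185 ± 4.45) were lower, and the metalloproteinases Mmp8 (62.5 ± 4.94) and Mmp9 (55.6 ± 3.87) were lowest and overlapped each other. The members thus differed widely in level within the same cultures.

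With SETBP1-D868N, Chil3 (10245 ± 478 CPM per kb) no longer overlapped S100a9 (8394 ± 903), and Camp (122 ± 14.3) and Cd177 (122.5 ± 6.64) overlapped. With DMSO the 4 highest were S100a9 (13858 ± 1095), Chil3 (11992 ± 811), S100a8 (7403 ± 1061) and Ngp (2502 ± 304.5), the first 2 overlapping. With PF-9363 the order changed without overlap for Lcn2 and Camp. Lcn2 (2986 ± 193 CPM per kb) stood above Ngp (2487 ± 228) without overlap, and Camp (26.4 ± 0.932) moved from above Mmp8 and Mmp9 to the lowest place. Cd177 (132 ± 4.21), Mmp9 (115 ± 18.9) and Mmp8 (98.7 ± 8.86) were then neighbours, with overlap between Cd177 and Mmp9 and between Mmp9 and Mmp8.

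**Figure D2:**
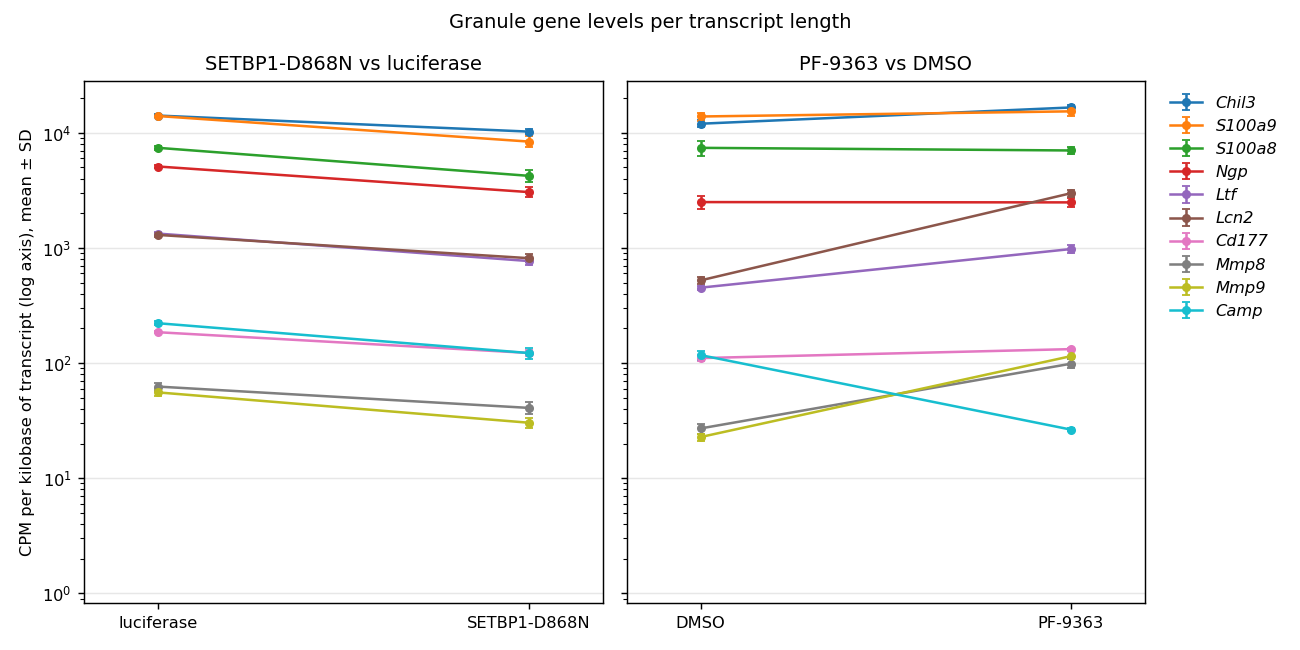
Mean level in CPM per kilobase of transcript (log axis) of each granule gene in the control and treated group of each experiment, with SD bars over 3 (left) or 4 (right) libraries. The lines run nearly parallel from luciferase to SETBP1-D868N, whereas from DMSO to PF-9363 the Lcn2 line crosses that of Ngp and the Camp line crosses those of Mmp8 and Mmp9.

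The first comparison asked how cells carrying SETBP1-D868N differ from luciferase controls. All 10 granule genes fell, by a narrow range of sizes, from a log2 fold change of −0.46 for Chil3 to −0.87 for Mmp9, with a median of −0.74 against 0.0043 over all 15794 genes tested. Calls are edgeR quasi-likelihood tests with Benjamini-Hochberg adjusted p under 0.05 over all genes tested. Called lower were 10 of the 10, against 22.7% of all genes (47.2% in either direction and 24.5% higher). All SETBP1-D868N libraries lay below all luciferase libraries in 10 of the 10, against 27.3% of all genes (56.7% in either direction and 29.4% higher). Called at least 2-fold lower were 0 of the members and 2.48% of all genes, and 1.34% were called at least 2-fold higher. A lower level in bulk RNA cannot be told apart from fewer cells of a type in the culture.

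Among the antimicrobial proteins, Ltf had 3482, 3725 and 3757 CPM in the 3 luciferase libraries and 2251, 2173 and 1910 CPM with SETBP1-D868N. Every mutant library was below every control, and the log2 fold change was −0.79 (SE 0.070, edgeR adjusted p 2.82e-04), or 1.73-fold lower. Camp had 161, 170 and 173 CPM with luciferase and 105, 90.0 and 83.5 CPM with SETBP1-D868N (log2 fold change −0.86, SE 0.090, edgeR adjusted p 7.78e-04). Ngp, far more abundant than Camp also per kb, was at 6047, 6358 and 6277 CPM against 4052, 3831 and 3322 CPM (−0.74, SE 0.079, edgeR adjusted p 0.00104). Lcn2 went from 1187 ± 45.7 to 746 ± 58.5 CPM (log2 ratio −0.67, SE 0.062, edgeR adjusted p 2.09e-04). The fold changes of these 4 genes thus ran only from −0.86 to −0.67 on the log2 scale.

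Of the granule proteases, Mmp9 showed the largest decrease of the 10 genes. Its luciferase libraries held 162, 183 and 184 CPM and its SETBP1-D868N libraries 107, 91.5 and 90.9 CPM (log2 ratio −0.87, SE 0.085, edgeR adjusted p 4.84e-04). Mmp8 had 138, 160 and 157 CPM with luciferase and 112, 95.9 and 89.2 CPM with SETBP1-D868N (−0.61, SE 0.11, edgeR adjusted p 0.00898). Here SETBP1-D868N 1 was the highest mutant library and luciferase 1 the lowest control, and the groups came closer to each other, relative to their level, than for any other member. The surface and granule protein Cd177 went from 503 ± 12.1 to 332.5 ± 18.0 CPM (log2 ratio −0.60, SE 0.038, edgeR adjusted p 6.33e-07).

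The calprotectin subunits moved together. S100a8 had 3685, 3693 and 3415 CPM with luciferase and 2350, 1903 and 1916 CPM with SETBP1-D868N, and S100a9 had 7189, 7340 and 7243 against 4749, 4483 and 3838 CPM. Their log2 fold changes were −0.81 (SE 0.10, edgeR adjusted p 0.00283) and −0.74 (SE 0.084, edgeR adjusted p 0.00152). The S100a8 to S100a9 ratio of counts was 0.496 ± 0.0215 with luciferase and 0.473 ± 0.0418 with SETBP1-D868N, and the groups overlapped. Chil3, the most abundant member, changed least, from 22316, 21156 and 21690 CPM to 15148, 16580 and 15574 CPM (log2 fold change −0.46, SE 0.034, edgeR adjusted p 1.15e-06). Chil3 has a close paralog, Chil4, at 6.74 ± 0.748 and 3.175 ± 0.604 CPM, and how the counting shared reads between them is not known.

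The libraries of 1 group tended to rank alike across the list. SETBP1-D868N 3 was the lowest of its group for 8 of the 10 genes and SETBP1-D868N 1 the highest for 8, and luciferase 1 was the lowest control for 8. The summed level of the 8 neutrophil markers was 508 to 541 CPM with SETBP1-D868N, and it too was lowest in SETBP1-D868N 3. With luciferase it was 842 to 858.5 CPM, and luciferase 1 (842.3) did not stand below luciferase 3 (842). The 10 genes are thus not 10 independent observations of the condition. Over the tested genes, the counts of luciferase 2 and 3 were closer (chi-square per degree of freedom 2.29) than those of luciferase 1 to either (27.4 and 28.1).

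**Figure D3:**
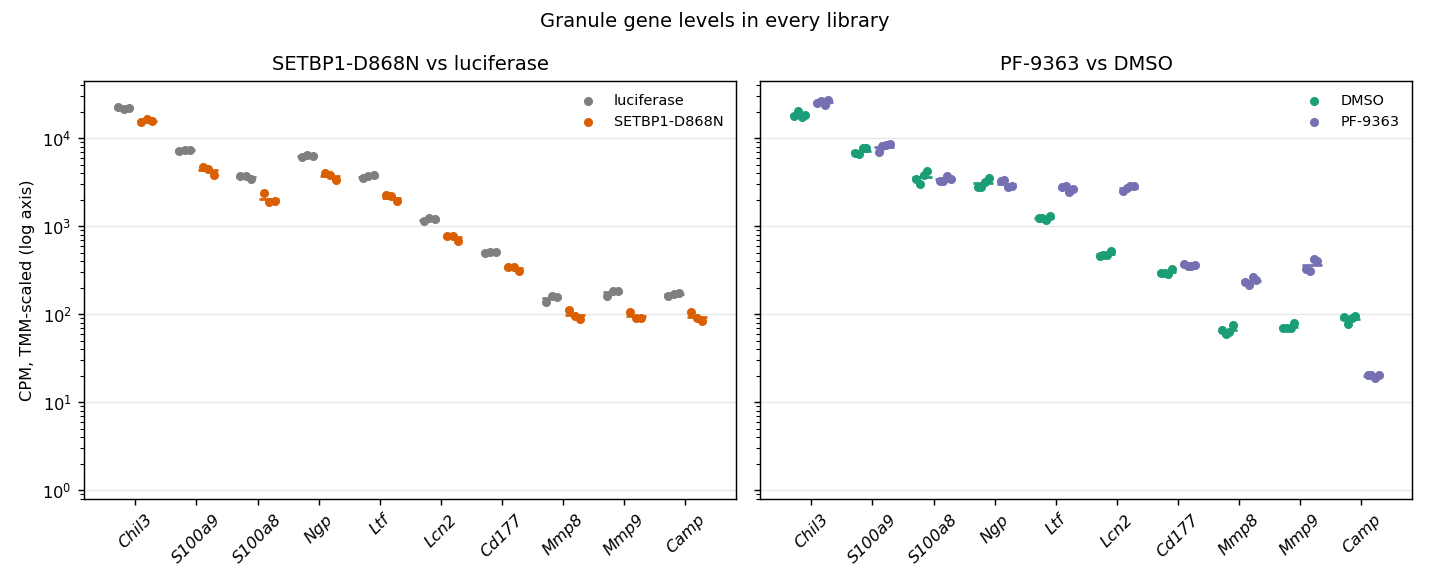
CPM of each granule gene on a log axis, 1 point per library and a bar at the group mean, with n = 3 per group on the left and n = 4 on the right. On the left every SETBP1-D868N point lies below the luciferase points of the same gene. On the right, Lcn2, Mmp9, Mmp8 and Ltf lie higher with PF-9363, Camp lies lower, and the points of S100a9, S100a8 and Ngp overlap.

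The second comparison asked what PF-9363 does in cells that all carry SETBP1-D868N. Here the granule genes split. Lcn2, Mmp9, Mmp8 and Ltf rose at least 2-fold, Chil3 and Cd177 rose by less, Camp fell more than 4-fold, and Ngp, S100a8 and S100a9 were not called. Called higher were 6 of the 10 genes, against 36.6% of all 13456 genes tested, and called lower was 1, against 39.4%, so the count called was near the background of 76.0% in either direction. The groups did not overlap in 7 of the 10, against 70.3% of all genes (34.0% with every PF-9363 library higher and 36.3% lower). Called at least 2-fold higher were 4 members, against 15.8% of all genes, and at least 2-fold lower 1, against 18.1%. The median log2 fold change of the 10 was 0.36, beside −0.038 over all genes, but their values ranged from −2.15 to 2.51. In the first comparison the same genes had ranged only from −0.87 to −0.46. Over all genes, too, calls of at least 2-fold were rarer there (1.34% higher and 2.48% lower) than with PF-9363.

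Lcn2 showed the largest rise. The DMSO libraries held 457, 467, 465 and 524 CPM and the PF-9363 libraries 2491, 2711, 2853 and 2874 CPM. The 5.71-fold difference (log2 fold change 2.51, SE 0.068, edgeR adjusted p 7.64e-23) was far wider than the spread in either group, and 96.6% of all genes tested had a lower fold change. Mmp9 rose from 68.8, 70.45, 70.5 and 79.5 CPM to 322, 305, 428 and 402.5 CPM (2.33, SE 0.11, edgeR adjusted p 6.33e-11). Its PF-9363 libraries 3 and 4 were higher than 1 and 2, the widest relative spread of the 10 genes in that group. Mmp8, the other metalloproteinase, had 66.0, 58.9, 62.9 and 74.7 CPM with DMSO and 229, 216, 266 and 246 CPM with PF-9363 (1.86, SE 0.076, edgeR adjusted p 3.18e-18).

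The 4 antimicrobial genes, so close in the first comparison, parted here. Ltf rose 2.165-fold, from 1244, 1242, 1180 and 1292 CPM to 2794, 2888, 2432 and 2618 CPM (log2 fold change 1.11, SE 0.064, edgeR adjusted p 2.26e-15). Camp fell from 92.4, 76.5, 91.5 and 95.1 CPM to 20.3, 20.5, 19.0 and 20.4 CPM, or 4.425-fold lower (log2 ratio −2.15, SE 0.088, edgeR adjusted p 1.03e-18). All 4 PF-9363 libraries of Camp lay close together and rested on 122 to 197 counts each. Ngp had 2784, 2758, 3137 and 3552 CPM with DMSO and 3242, 3314, 2775 and 2827 CPM with PF-9363 (log2 ratio −0.0087, SE 0.080, edgeR adjusted p 0.926). Of the 3 secondary granule genes in the same stretch of chromosome 9, then, Ltf was called higher, Camp was called lower and Ngp was not called.

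Smaller changes were seen in Chil3 and Cd177. Chil3 rose from 17864, 20261, 17445 and 18250 CPM to 24782, 26426, 23942 and 27023 CPM (log2 fold change 0.47, SE 0.069, edgeR adjusted p 5.41e-07). Cd177 had 290, 291, 289 and 329 CPM with DMSO and 375, 353, 349.5 and 357 CPM with PF-9363 (0.26, SE 0.060, edgeR adjusted p 3.18e-04). The calprotectin genes were not called. S100a8 ran from 2998 to 4209 CPM with DMSO and from 3246 to 3731 CPM with PF-9363 (−0.076, SE 0.083, edgeR adjusted p 0.414). S100a9 ran from 6664 to 7698 and from 6860 to 8524 CPM (0.15, SE 0.073, edgeR adjusted p 0.0657). The S100a8 to S100a9 ratio of counts was 0.499 ± 0.0400 with DMSO and 0.431 ± 0.0404 with PF-9363, and the groups overlapped.

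The small changes of this comparison depend on the scaling. Without TMM, by library size alone, the median gene shifted by −0.23 log2 units, and the log2 fold change of Cd177 became 0.030 (edgeR adjusted p 0.655). S100a8 (−0.31, edgeR adjusted p 0.001003) and Ngp (−0.24, edgeR adjusted p 0.0167) were then called lower and S100a9 had −0.083 (edgeR adjusted p 0.247). With RLE size factors S100a9 was instead called higher (0.17, edgeR adjusted p 0.0340). Lcn2, Mmp9, Mmp8, Ltf, Chil3 and Camp kept their calls and directions under all 16 alternatives.

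**Figure D4:**
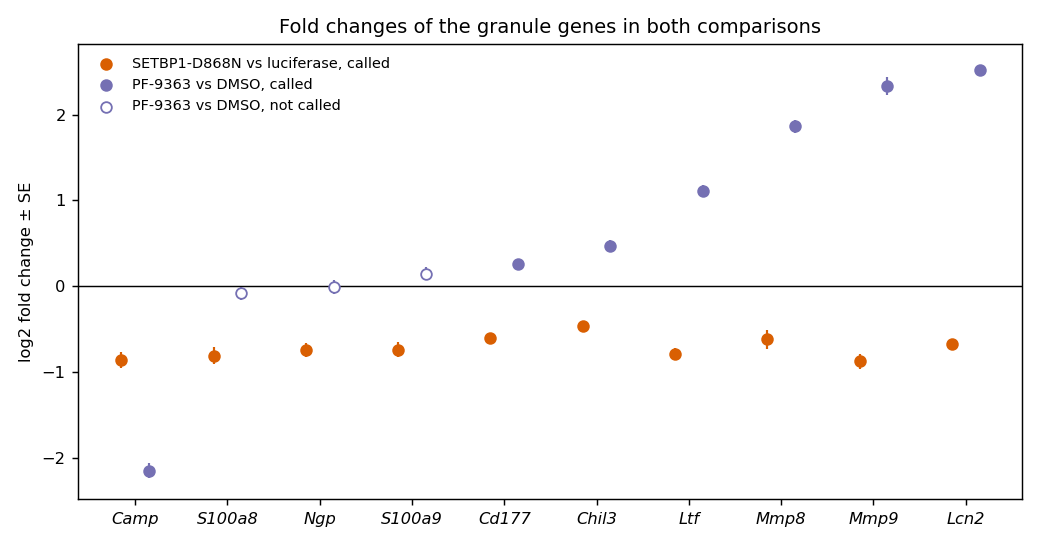
Log2 fold change with SE of the 10 granule genes in SETBP1-D868N against luciferase and in PF-9363 against DMSO, ordered by the second. Filled points passed an adjusted p of 0.05 and open points did not. The first comparison stays between −0.87 and −0.46 for every gene, while the second runs from −2.15 for Camp to 2.51 for Lcn2.

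Other genes of the granule program were read from lists of related genes. Counts called in this and the later lists stand against shares over all genes tested. With SETBP1-D868N 24.5% of all genes were called higher and 22.7% lower, and with PF-9363 36.6% higher and 39.4% lower. Of 20 other secondary and tertiary granule and secreted genes, 16 fell with SETBP1-D868N and 0 rose (median log2 fold change −0.49). The largest decrease was that of Arg1, arginase 1 (276 ± 15.8 to 100.5 ± 7.11 CPM, −1.46), an enzyme that macrophages also make. Next were Fpr1, a formyl peptide receptor (36.8 ± 1.14 to 20.8 ± 2.20 CPM, −0.83), and the membrane metalloproteinase Mmp25 (37.0 ± 2.27 to 21.5 ± 0.351 CPM, −0.78). With PF-9363, 17 of the 20 passed the filter, 16 rose and 0 fell (median 1.34). Slc11a1, a metal transporter of phagosomes, rose from 1.36 ± 0.256 to 57.8 ± 2.95 CPM (5.395), and Fpr2 (10.1 ± 2.03 to 119 ± 13.1 CPM, 3.56) and Fpr1 (9.72 ± 1.37 to 109 ± 18.7 CPM, 3.48) followed. Haptoglobin, Hp, was the single tested gene of this list not called with PF-9363 (−0.098, edgeR adjusted p 0.182). By library size alone 13 rose and 1, Hp, fell.

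Genes of neutrophil maturation outside granules mostly fell in the first comparison. Of 20, 19 fell with SETBP1-D868N and 1 rose. Asprv1 (log2 fold change −1.32), Stfa3 (−1.30) and Retnlg (−1.29) fell most, and Stfa3 belongs to a family of near-identical stefins whose reads may be split among copies. With PF-9363, 12 rose, 3 fell and 5 were not called, beside the 76.0% of all genes called. The receptor for G-CSF, Csf3r, rose from 81.5 ± 1.82 to 326 ± 27.3 CPM (2.00), and the C-type lectins Clec4d (2.63) and Clec4e (2.31) rose more. Trem3 (−1.87) and the decoy receptor Il1r2 (−1.71) fell most. The split became 10 rising and 7 falling by library size alone.

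Primary granule genes mostly rose with SETBP1-D868N, where the members fell, and mostly fell with PF-9363. Of 15, 10 rose and 2 fell with SETBP1-D868N (median 0.12), led by Ctsg, cathepsin G (617 ± 5.46 to 934 ± 24.1 CPM, log2 fold change 0.60), Nkg7 (0.47) and Mpo, myeloperoxidase (0.40). Fcnb, ficolin B (−0.77), and Igsf6 (−0.28) fell. Igsf6 encodes a membrane protein, and the list holds other genes whose products are not granule contents, such as Clec12a and Serpinb1a. With PF-9363, 11 of the 14 tested fell (median −3.05) and 3 rose, of which Ctsc, the protease that activates granule serine proteases, went from 260 ± 6.59 to 577 ± 23.3 CPM (1.15). Igsf6 and Cst7 lost their calls by library size alone. Elane (−9.66), Mpo (−8.49) and Fcnb (−7.62) fell most. Among the members, Camp alone fell with PF-9363, and its −2.15 was smaller in size than the median of this list.

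**Figure D5:**
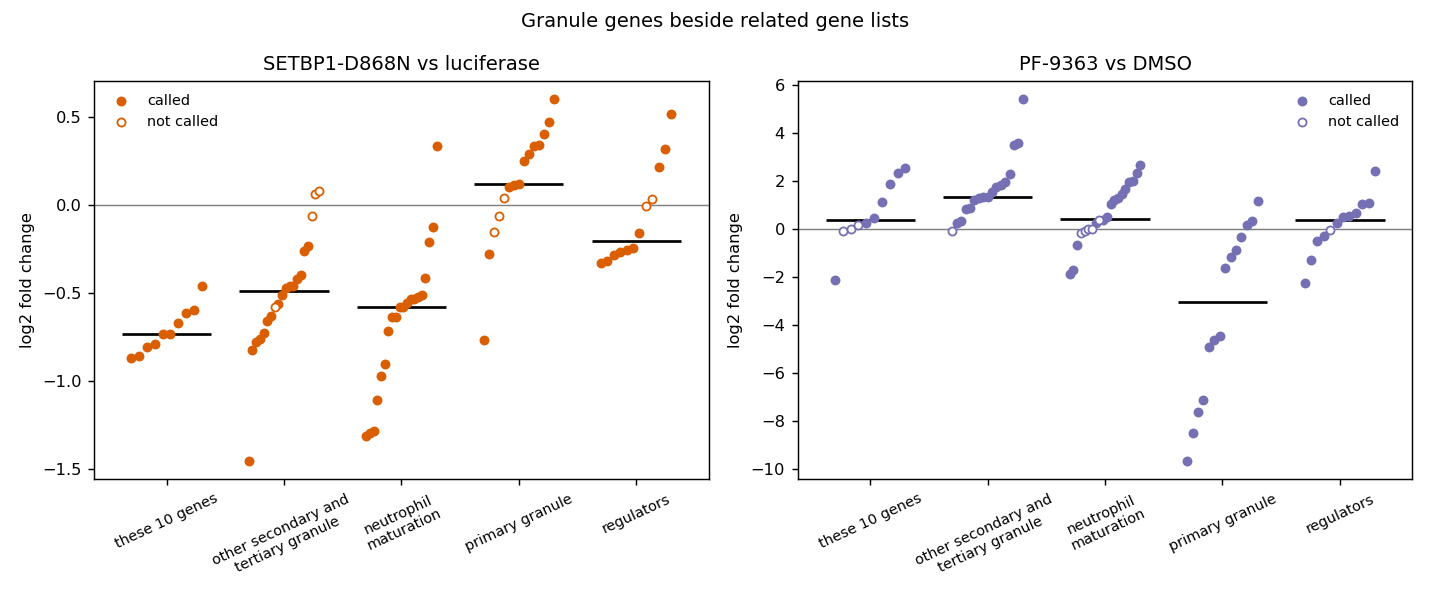
Log2 fold changes of the 10 granule genes and of 4 lists of related genes (each point 1 gene, filled where called, the line at the median) in both comparisons, on separate vertical scales. On the left the members and both neutrophil lists lie mostly below 0 and the primary granule genes mostly above. On the right the members spread on both sides of 0 and the primary granule genes reach −9.66.

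Regulators of granule genes, listed together with factors of other myeloid lineages such as Irf8 and Gata2, changed in both directions. With SETBP1-D868N, Cebpe fell from 127 ± 2.63 to 101 ± 2.94 CPM (log2 fold change −0.33, SE 0.031, edgeR adjusted p 3.87e-06), and Cebpd (−0.32), Irf8 (−0.29) and 4 others of the 12 fell. Cebpa, which acts at the start of granulocyte commitment, rose from 258 ± 1.42 to 369 ± 14.8 CPM (0.52), as did Gfi1 (0.31) and Gata2 (0.21). With PF-9363, Cebpe also fell, from 140 ± 18.9 to 57.3 ± 13.5 CPM (−1.29, SE 0.18, edgeR adjusted p 3.17e-04). Gfi1 fell from 142.5 ± 6.45 to 29.7 ± 7.88 CPM (−2.26) and Cebpa fell by 0.52 on the log2 scale. Gata2 (2.40), Klf5 (1.06) and Irf8 (1.04) rose most of the 7 regulators called higher. Cebpe, Gfi1 and Cebpa were called lower with PF-9363, as were Camp and 39.4% of all genes tested. Ltf, Lcn2, Mmp8 and Mmp9 were called higher. A link between these regulators and the members was not tested.

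Receptors, partners and inhibitors of the granule proteins were lower or not called in most cases with SETBP1-D868N (7 lower, 1 higher of 13 tested) and higher with PF-9363 (10 higher, 1 lower of 12). The inhibitor of Mmp9, Timp1, went from 2.105 ± 0.211 to 1.08 ± 0.297 CPM in the first comparison (log2 fold change −0.95), and from 2.44 ± 0.983 to 6.74 ± 1.98 CPM in the second (1.445). Itgam, the alpha chain of the integrin that associates with CD177, fell with SETBP1-D868N (−0.66) and rose with PF-9363 (1.34). Itgam, Itgb2 and Fpr2 are also on the list of other secondary and tertiary granule genes, so these lists are not independent. P2rx7, reported as a target of cathelicidin, rose slightly in the first comparison (0.17) and from 6.41 ± 1.06 to 67.1 ± 6.61 CPM in the second (3.39), while Pecam1, the binding partner of CD177, fell with PF-9363 (−0.43).

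Relatives of the members were mostly scarce. Of 12 other S100 genes, 7 were tested in the first experiment and 6 fell, and 5 were tested in the second and 4 rose. S100a6 fell with SETBP1-D868N (168 ± 6.68 to 112 ± 7.28 CPM, log2 fold change −0.58) and rose with PF-9363 (81.7 ± 12.1 to 336 ± 59.7 CPM, 2.035), where its neighbours S100a8 and S100a9 were not called. S100a10 did the same (−0.63 and 1.17). S100a4, a gene close to S100a6, was at 2.325 ± 0.206 CPM with luciferase and listed at 0 in every library of the second experiment, and whether the counting gave these zeros is not known. Of the chitinase-like relatives of Chil3, Chil1 fell with SETBP1-D868N (251 ± 10.4 to 137 ± 21.0 CPM, −0.88) and rose with PF-9363 (83.1 ± 6.52 to 193 ± 9.74 CPM, 1.21).

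Markers of cell types changed as well, in some lists in the direction of most of these genes and in others not. With SETBP1-D868N, 13 of 14 monocyte and macrophage markers fell and 0 rose, and their summed level was 1731 to 1754 CPM with luciferase and 1316 to 1368 CPM with the mutant. With PF-9363, 12 of the 14 rose, among them Mrc1 (231 ± 22.6 to 2080 ± 227 CPM) and Csf1r (62.2 ± 4.70 to 424 ± 22.8 CPM), and 2, Ccr2 and Ly6c2, fell. Their sum was 2413 to 2581 CPM with DMSO and 3836 to 4376 CPM with PF-9363. The 8 neutrophil markers, all of them also on the neutrophil maturation list, summed to 1371 to 1739 CPM with DMSO and 2488 to 2976 CPM with PF-9363. Of these, 5 were called higher and 1 lower (4 higher and 3 lower by library size alone). Ly6g rose from 57.7 ± 4.035 to 157 ± 18.5 CPM (log2 fold change 1.44) and Il1r2 fell (−1.71). Retnlg (−0.18) and Stfa1 (−0.018) were not called. A large part of the sum was the stefin gene Stfa2, which rose from 284 ± 30.9 to 1085 ± 116.5 CPM. Of 10 mast cell and basophil markers, 9 rose and 0 fell with PF-9363, with sums of 1195 to 1538 and 4590 to 5546 CPM. In these 3 lists 0 markers were at 0 in every library. Of 8 eosinophil markers, 4 fell and 1 rose with SETBP1-D868N, and 7 fell and 1 rose with PF-9363 (sums of 690.5 to 894 and 266 to 378 CPM). With SETBP1-D868N, 6 of the 10 mast cell and basophil markers fell and 4 rose (median log2 fold change −0.61), while their sum was 5280 to 5484 CPM with luciferase and 5687 to 5807 CPM with the mutant. The part that these cell types have in the granule gene values was not tested.

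Likeness was measured as the root mean square distance between profiles of log2 CPM over the 14 libraries, each centred on the control mean of its experiment, among 10372 other genes, the 10 members themselves left out. Lcn2 was nearest to Nlrp3, the inflammasome sensor (0.0860 log2 units). Mmp8 was nearest to Grina (0.0885) and Lgals3, galectin-3 (0.0986), and Mmp9 to Tph1 (0.144) and Dhrs9 (0.145). Ltf was nearest to Tcp11l2 (0.113) and Chil1 (0.117), Cd177 to Sp140 (0.0566) and the granule protein gene Pglyrp1 (0.0746), and Chil3 to Plxnd1 (0.0587) and Znfx1 (0.0757). Outside the members, S100a8 was nearest to Stfa1 (0.135) and Mxd1 (0.154), while its fellow member Ngp was closer (0.128). S100a9 was nearest to Hsd11b1 (0.0944) and S100a11 (0.120), and Ngp to Hsd11b1 (0.116) and Pfkfb4 (0.125). Camp had the most distant nearest genes, Tnfsf13os (0.223) and Epm2a (0.225), and its nearest fellow member, S100a8, was 1.11 log2 units away. Lcn2 and Mmp9, by contrast, were 0.169 apart.

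The nearest protein-coding genes on the chromosome were read for each member, up to 2 on either side. Cdc25a, a cell cycle phosphatase gene 26.0 kb from Camp, fell with PF-9363 as Camp did (87.2 to 14.2 CPM, log2 fold change −2.61) but rose with SETBP1-D868N (0.15). Nme6, 4.3 kb away on the other side, fell with PF-9363 (−0.56) and was not called with SETBP1-D868N. Map4, 81.8 kb away, rose with PF-9363 (1.012) and fell with SETBP1-D868N (−0.33). Beside Ltf, Ccrl2 was not called with PF-9363 (0.32, edgeR adjusted p 0.125) and fell with SETBP1-D868N (−0.33). Lrrfip2, 74.8 kb away, rose with PF-9363 (0.63) and fell with SETBP1-D868N (−0.22). Beside Ngp, Klhl18 (−0.066, edgeR adjusted p 0.501) and Scap (−0.070, edgeR adjusted p 0.521) were not called with PF-9363, Ptpn23 rose (0.86), and Kif9 fell (−3.31) from a low level of 2.82 CPM. With SETBP1-D868N, Klhl18 (−0.18) and Kif9 (−0.66) fell, Scap rose (0.18) and Ptpn23 was not called. Mmp27, 2.9 kb from Mmp8, had the directions of Mmp8 in both comparisons at far lower levels, −0.555 from 1.44 to 0.983 CPM and 1.73 from 0.900 to 3.02 CPM. Ceacam10, 16.9 kb from Cd177, fell with SETBP1-D868N (−0.66) and rose with PF-9363 (1.67), against 0.26 for Cd177. Slc12a5, 5.0 kb from Mmp9, fell with SETBP1-D868N (−0.75) and rose with PF-9363 (1.10), from 1.535 to 0.917 CPM and from 1.23 to 2.69 CPM. The other neighbours of Mmp9 did not follow it. Ncoa5, 44.5 kb away, rose with SETBP1-D868N (0.25) and fell with PF-9363 (−0.59), and Zfp335 and Pcif1 were not called in either comparison. The neighbours of Lcn2, Ciz1 and 1110008P14Rik on one side and Ptges2 and Slc25a25 on the other, rose with PF-9363 by 0.24 to 0.73 on the log2 scale, beside 2.51 for Lcn2, and were not called with SETBP1-D868N. Beside Chil3, and at far lower levels, Chil4 (−1.08 and 1.53) and Chil5 (−0.94 and 1.80) fell with SETBP1-D868N and rose with PF-9363. Chia1 and Chil6 did not pass the filter.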

How the data were processed

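Raw counts were deposited by the authors for each symbol, in 1 table per experiment with 1 column per library, per the labels. STAR, DESeq2, GRCm38 and mm10 are named in the submitters' processing notes without a role; the counting program, annotation and strand handling are not given in the sources used here. No column was left unmapped (0), and groups come from the sample titles.

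From those counts, genes were kept by filterByExpr (minimum count 10, minimum total 15) and compared within each experiment with edgeR 4.0.16 (R 4.3.3; TMM scaling, glmQLFit with robust estimation, glmQLFTest, groups alone in the model). Adjustment was by Benjamini-Hochberg, over 15794 and 13456 genes, and calls were made under 0.05. The SE is the absolute log2 fold change over the square root of F. Alternatives were other scalings and filters, DESeq2 1.42.0, limma 3.58.1 (voom), no robust estimation, a replicate block and leaving out each library.

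The 10 genes and the lists were chosen with earlier results of these data known. Named list genes are up to 3 per direction, list and comparison with the largest called change and at least 1 CPM in the higher group; Itgam, Timp1, Hp, Csf3r, and the neighbours and cell markers printed were chosen after their values were seen. Lengths and positions are from GENCODE M21 (GRCm38), promoters from RefSeq (GRCm38.p6). Likeness added 0.5 counts before logs and required at least 5 CPM in a group. Some genes that these rules would name are not reported here.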

Additional observations from a re-analysis of the deposited data

Results flagged for a closer look

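In 4 of 20 group-by-gene sets of 4 libraries, 1 library stood apart from the other 3 by Dixon's criterion at the 95% level, which chance alone does for about 1 set in 20. In DMSO 4, Lcn2 was at 524.2 CPM against 457 to 467 in the others, Mmp9 at 79.47 against 68.8 to 70.5, and Cd177 at 329.2 against 289 to 291. These 3 flags come from 1 library and are not independent. DMSO 4 was the highest of its group for 9 of the 10 genes and had the highest summed neutrophil markers, 1739 CPM. Without it, the log2 fold changes with PF-9363 were 2.55 for Lcn2, 2.37 for Mmp9 and 0.30 for Cd177, all still called higher. In PF-9363 3, Camp was at 18.99 CPM, from 122 counts, against 20.3 to 20.5 in the others, and without it the log2 fold change was −2.11.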

How the results depend on the processing

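Of 300 values of the 10 genes under the alternatives, 283 kept their direction and their side of the threshold, 2 lost a call, 8 gained one and 7 changed sign. With PF-9363, 3 genes were called lower by library size alone, and leaving out single libraries gave 1 to 2, the second being S100a8 without DMSO 2 (log2 fold change −0.16, edgeR adjusted p 0.0485). Ngp changed sign with RLE size factors (0.017) and in DESeq2 (0.017). Its values with single libraries left out ran from −0.060 to 0.064, with the sign changed when DMSO 4 (0.064), PF-9363 3 (0.044) or PF-9363 4 (0.034) was dropped. That of S100a8 changed without DMSO 4 (0.0015) and that of S100a9 by library size alone (−0.083). None of these 7 was called. S100a9 was called higher with RLE (0.17), DESeq2 (0.17), limma-voom (0.15) and without PF-9363 1 (0.22). The cause was not tested.

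Replicate numbers did not pair the libraries: deviations of same-numbered libraries correlated at −0.097 to −0.037 (SETBP1-D868N and luciferase) and −0.040 to 0.0075 (PF-9363 and DMSO). With the replicate block, 9 of the 10 genes were called lower with SETBP1-D868N, Mmp8 being lost (−0.62, edgeR adjusted p 0.0555), and 7 higher with PF-9363, S100a9 being added (edgeR adjusted p 0.0432). Over all genes the block gave 6640 calls against 7448, and 10124 against 10228.

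Changes of about 0.2 log2 units in the second experiment are of the size of the scaling shift.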
